A study of Mus musculus with 8 samples.

Results

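Cytosolic nucleic acid sensors are the proteins that recognise foreign or misplaced RNA and DNA inside the cell. The set described here has 10 genes of the 55487 in the deposited table: Ddx58, Ifih1, Dhx58, Ddx60, Mavs, Zbp1, Eif2ak2, Adar, Trim25 and Aim2, each matched by its symbol to a single row, and 8 of the 10 rose in the libraries labelled PIM1+/-. The libraries came from colon intestinal epithelial cells of C57BL/6J mice, 4 from wild type (WT) animals and 4 labelled PIM1+/-, a notation for 1 intact and 1 altered copy of the kinase gene Pim1. No treatment is named in the labels, and the labels read here give neither age, sex nor the structure of the altered allele. Values are TPM, transcript abundance within a library scaled to a common total and for gene length, which can be compared between genes, and are given as mean ± SD over n = 4 libraries. Log2 fold changes, with their SE, are PIM1+/- over WT, taken on log2(TPM + 1), where the added 1 shrinks the change of weakly expressed genes, and adjusted p-values are from limma with Benjamini-Hochberg adjustment over 12760 genes.

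RIG-I (encoded by Ddx58) and MDA5 (Ifih1) are helicases that bind double-stranded or 5′-triphosphate RNA and pass the signal to MAVS, an adaptor on the mitochondrial outer membrane, which leads to induction of interferon genes. LGP2 (Dhx58) is the related helicase that lacks the signalling domains. ZBP1 binds nucleic acid in the left-handed Z form and can start necroptosis, PKR (Eif2ak2) is a kinase that stops translation when it binds double-stranded RNA, ADAR edits adenosines in such RNA and thereby restrains these sensors, and AIM2 assembles an inflammasome on cytosolic DNA. Most of these genes are known to be induced by interferon, so that the sensors are also products of the response they start.

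The TPM of all genes listed summed to between 990958 and 992187 per library, and because TPM discards the number of reads, the precision that depth gives is unknown. The labels do not say that libraries came from separate animals, and p-values therefore measure the spread between these libraries, which may be technical. Pim1 itself, named in the genotype, did not pass the test (-0.19 ± 0.15, adjusted p = 0.411). Epithelial markers were abundant in every library and also differed with genotype: 11 such genes summed to between 14558 and 15633 TPM in WT and between 16291 and 17268 TPM in PIM1+/-, with 7 called higher and 1 lower. The largest increases of the 11 were Krt20 (0.62 ± 0.12, adjusted p = 0.00849) and Cdx2 (0.62 ± 0.07, adjusted p = 0.000583). The gene called lower was Cdx1 (-0.21 ± 0.06, adjusted p = 0.0296). Epcam, Cdh1 and Lgals4 were not called (log2 fold changes 0.07, -0.09 and -0.07). Markers of T cells, NK cells and myeloid cells were lower in level and differed with genotype, while B and plasma cell markers summed to between 4.28 and 14.5 TPM in WT and between 8.28 and 13.5 TPM in PIM1+/-, with 0 of 2 tested called (limma). The 17 T cell, NK cell and intraepithelial lymphocyte markers summed to between 14.5 and 30.6 TPM in WT and between 51.2 and 120.5 TPM in PIM1+/-. Of 12 tested, 9 were called higher, among them Cd8a and Itgae, which met the filter in PIM1+/- libraries alone. The 18 myeloid and mast cell markers summed to between 26.25 and 33.4 TPM in WT and between 50.4 and 65.5 TPM in PIM1+/-. Of 5 tested, 4 were called higher, among them Mcpt1 and Mcpt2, which met the filter in PIM1+/- libraries alone. The calls of Cd8a, Itgae, Mcpt1 and Mcpt2 are not taken as support. Beside the counts of the epithelial, lymphocyte and myeloid lists, 8.93% of all genes tested were called higher and 8.54% lower. Most of the myeloid sum was Cd14 (26.1 ± 1.998 TPM in WT and 37.9 ± 5.28 TPM in PIM1+/-). Ccl5 went from 7.19 ± 3.02 to 32.4 ± 16.2 TPM, Gzma from 2.20 ± 0.729 to 11.4 ± 4.34 TPM, Gzmb from 0.792 ± 0.327 to 6.37 ± 1.26 TPM and C1qa from 0.562 ± 0.342 to 4.805 ± 2.63 TPM. Unlike C1qa, the myeloid markers C1qb, C1qc, Csf1r and Lyz2 were too low to test, and Cd68 was not called (limma, adjusted p = 0.408). Among the lymphocyte and myeloid markers S100a9 was listed at 0 in every library, and Cd4, Adgre1 and Flt3 stayed below 1 TPM on average in both genotypes. In bulk RNA a change in the number of cells of a type and a change in RNA per cell cannot be told apart.

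All 10 sensor genes were high enough to be tested, and 8 were higher in PIM1+/- and 0 lower, with Mavs and Aim2 past the threshold in neither direction (limma, adjusted p under 0.05). Over all genes tested 8.93% were called higher and 8.54% lower. For the same 8 genes every PIM1+/- library lay above every WT library, an arrangement found in 11.9% of all genes tested, and Mavs had the opposite arrangement, found in 11.6%. The median log2 fold change of the 10 genes was 0.94, beside -0.01 over all genes tested. Summed over the 10 genes, the level was 211 ± 7.43 TPM in WT and 438 ± 55.3 TPM in PIM1+/-.

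**Figure D1:**
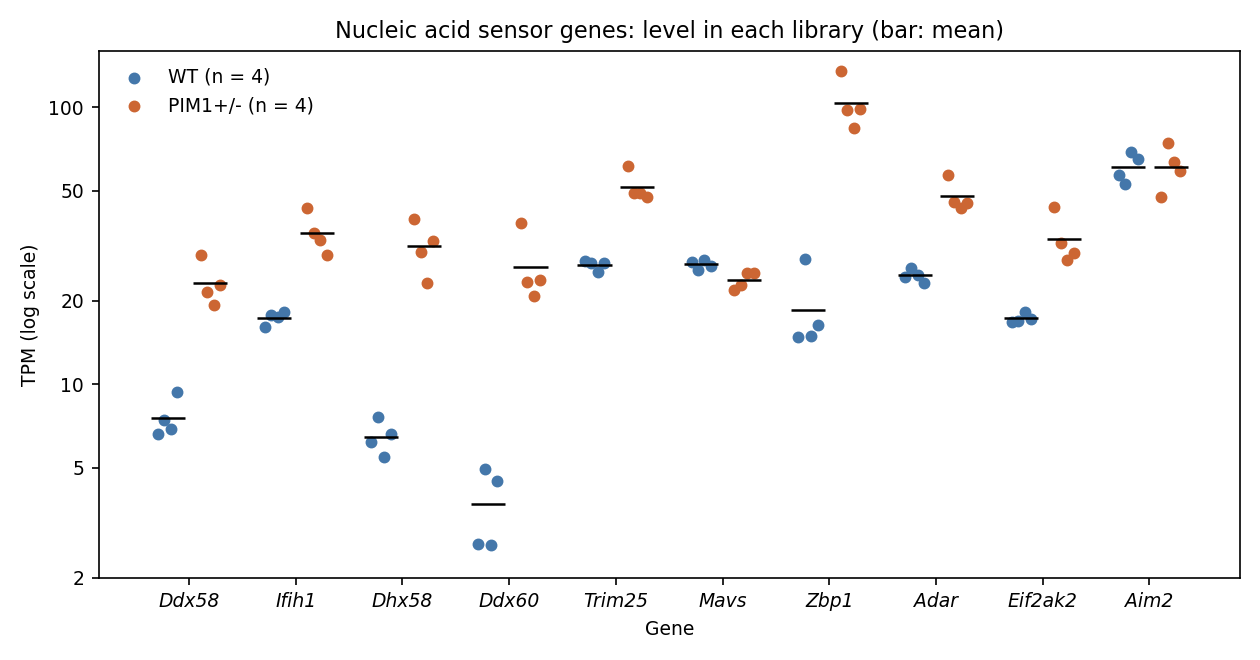
TPM of the 10 sensor genes in each of the 4 WT and 4 PIM1+/- libraries, on a log scale; each point is 1 library and each bar the mean of a genotype. The genotypes are apart for 8 genes that are higher in PIM1+/-, Mavs lies slightly lower in PIM1+/-, and the Aim2 points overlap.

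The RNA helicases rose to different extents. Ddx58 (ENSMUSG00000040296, minus strand, chromosome 4, 40203773 to 40239828, GRCm38), encoding RIG-I, stood at 6.59, 7.45, 6.92 and 9.35 TPM in the WT libraries and at 29.3, 21.45, 19.3 and 22.8 TPM in the PIM1+/- libraries, each in the order of replicates 1 to 4, as for every gene that follows. The genotypes did not overlap, and replicate 1 was the highest of the PIM1+/- libraries. The ratio of means was 3.06 and the log2 fold change 1.49 ± 0.14 (adjusted p = 0.000228). Ifih1 (ENSMUSG00000026896, minus strand, chromosome 2, 62595798 to 62646255), encoding MDA5, measured 16.1, 17.7, 17.5 and 18.2 TPM in WT and 43.4, 35.1, 33.1 and 29.3 TPM in PIM1+/-. It was the most abundant of the 3 RIG-I-like receptor genes in every library of both genotypes except PIM1+/- replicate 4, where Dhx58 exceeded it, and its increase was smaller (ratio 2.03, 0.97 ± 0.11, adjusted p = 0.000658).

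Dhx58 (ENSMUSG00000017830, minus strand, chromosome 11, 100694884 to 100704271), encoding LGP2, measured 6.21, 7.64, 5.44 and 6.6 TPM in WT and 39.3, 30.15, 23.3 and 33.0 TPM in PIM1+/-. All WT libraries lay far under the lowest PIM1+/- library, replicate 3, and the ratio of means was 4.86 (2.10 ± 0.15, adjusted p = 5.31e-05). Ddx60 (ENSMUSG00000037921, plus strand, chromosome 8, 61928087 to 62038244), a helicase gene reported to assist RIG-I, was the lowest of the set in WT, at 2.65, 4.96, 2.63 and 4.48 TPM, and measured 38.3, 23.3, 20.8 and 23.9 TPM in PIM1+/-. Its ratio of means, 7.22, exceeded that of every other member (2.56 ± 0.22, adjusted p = 0.00016). Ddx60 was also variable among WT libraries, with a coefficient of variation of 33.1%, against 5.19% for Ifih1.

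The sequences around the transcript starts of the members were also examined, as a description and without a test. The letters sought resemble the interferon-stimulated response element, the site bound by the interferon-activated transcription factors. RefSeq (GRCm38.p6) promoter entries, 250 bases before to 50 after a transcript start, were found for 8 of the 10 members (10 entries). No entry was found for Dhx58 or Zbp1, which both rose. The core GAAANNGAAA, or TTTCNNTTTC on the other strand, was present for 4 of these 8 genes, Ddx58, Ifih1, Ddx60 and Eif2ak2. Counted by entry it was present in 4 of the 10, beside 3.44% of all 32851 promoter entries. Ddx60 had 2 matches, beginning 53 and 19 bases before the start. In Ddx58, Eif2ak2 and Ifih1 the match began at base 3, 19 and 33 of the transcribed sequence, counting its first base as 1. The matches of these 4 genes are shown 5′ to 3′ on the gene's strand, with the core in capitals.
Ddx60, the 80 bases before the start (chr8:61928007-61928086, plus strand): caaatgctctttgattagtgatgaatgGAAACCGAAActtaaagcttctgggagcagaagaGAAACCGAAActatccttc
Ddx58, around the match (chr4:40239804-40239833, minus strand): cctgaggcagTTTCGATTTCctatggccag
Eif2ak2, around the match (chr17:78882535-78882564, minus strand): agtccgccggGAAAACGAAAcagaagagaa
Ifih1, around the match (chr2:62646206-62646235, minus strand): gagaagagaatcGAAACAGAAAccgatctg
The 2 cores of Ddx60 are the same 10 letters. Mavs and Aim2, which were not called, had no match, and neither did Adar or Trim25, which rose. The gamma-activated site core TTCNNNGAA, which reads the same on both strands and does not overlap the matches above, was found for Eif2ak2 and for 1 of 3 Adar entries, and in 8.30% of all entries. A match of letters is a description of the window and not evidence of binding.

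Trim25 and Mavs act just after RIG-I. Trim25 (ENSMUSG00000000275, plus strand, chromosome 11, 88999376 to 89020293), a ubiquitin ligase linked to RIG-I activation, measured 27.8, 27.4, 25.4 and 27.4 TPM in WT and 61.3, 49.0, 48.9 and 47.6 TPM in PIM1+/-. Every PIM1+/- library lay above every WT library, by a ratio of means of 1.91 (0.90 ± 0.08, adjusted p = 0.000227). Mavs (ENSMUSG00000037523, plus strand, chromosome 2, 131234063 to 131248025) measured 27.6, 25.9, 28.1 and 26.8 TPM in WT and 21.9, 22.9, 25.2 and 25.2 TPM in PIM1+/-. The adaptor was thus not higher in any PIM1+/- library than in any WT library, and the difference, with a ratio of means of 0.878, did not pass the test (-0.18 ± 0.07, 95% interval -0.33 to -0.03, adjusted p = 0.0894). Mavs passed as lower after upper quartile scaling (-0.23, adjusted p = 0.0385) and when TPM were rescaled without mitochondrially encoded transcripts (-0.24, adjusted p = 0.0375). Those transcripts took between 159650 and 182246 TPM in WT libraries and between 124178 and 135706 TPM in PIM1+/- libraries.

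With sensors rising and the adaptor not, their proportions differed between genotypes. In WT the summed TPM of Ddx58, Ifih1 and Dhx58 was 1.05, 1.27, 1.06 and 1.28 times that of Mavs in replicates 1 to 4, and in PIM1+/- it was 5.11, 3.79, 3.004 and 3.38 times. Among the 3 receptor genes, Ifih1 made up 55.4% ± 2.38 of the sum in WT and 39.3% ± 3.91 in PIM1+/-, and Dhx58 20.6% ± 2.26 and 34.9% ± 3.28. The share of Ddx58 was 24.0% ± 2.26 and 25.8% ± 0.89, with overlapping ranges. These shares and sums are given without a test.

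Whether members of a pair responded unequally was tested on the difference of their log2(TPM + 1) in each library, for 7 pairs, with an exact two-sided permutation test over the 8 libraries. In 6 of the 7 pairs the genotypes did not overlap (exact p = 0.0286 each, the smallest that 4 against 4 libraries allow, and adjusted p = 0.0333 over the 7). For Ddx58 and Mavs this outcome was fixed by the levels already given. Every PIM1+/- library was above every WT library for Ddx58 and below every WT library for Mavs. That pair is therefore not taken as support. How often other gene pairs separate the genotypes was not examined. Dhx58 gained on Ddx58 by 0.61 ± 0.12 (SE) and on Ifih1 by 1.14 ± 0.16. Relative to Ddx58, Ifih1 fell by 0.52 (SE 0.12). Ddx58 gained 1.67 ± 0.20 on Mavs and 0.59 ± 0.11 on Trim25. LGP2 thus rose most of the receptor genes, RIG-I next and MDA5 least. The sixth of these pairs, Zbp1 and Adar, is given with those genes, and the seventh pair, Eif2ak2 and Adar, did not differ beyond its spread.

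**Figure D2:**
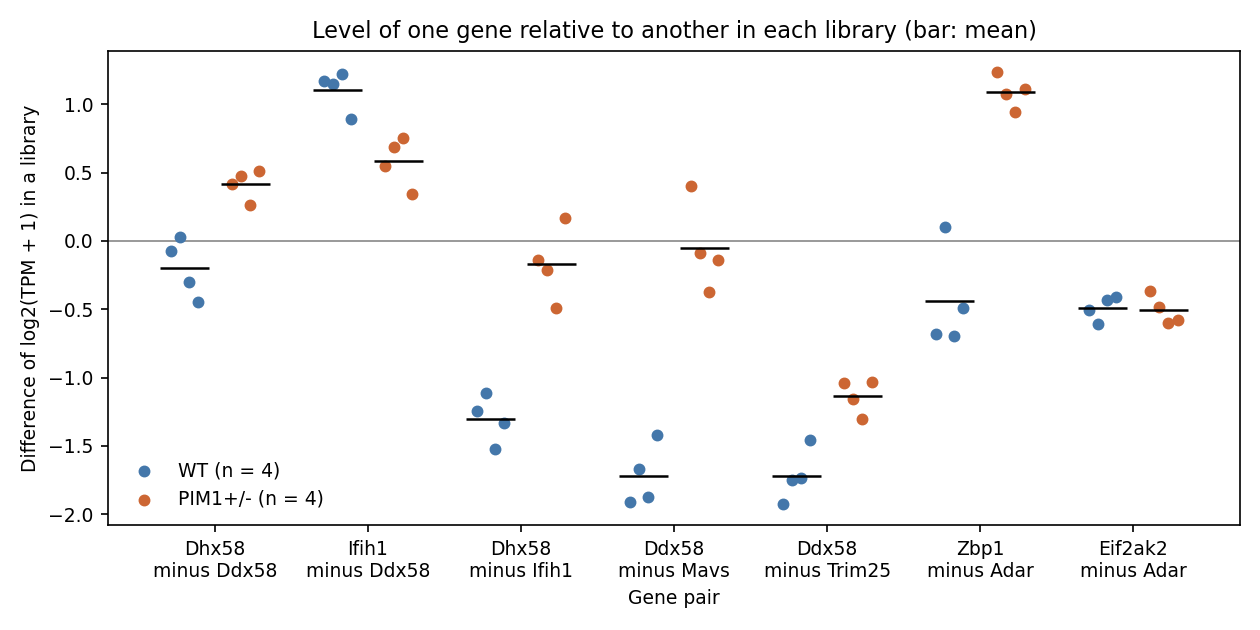
Difference of log2(TPM + 1) between the genes of each of 7 pairs, 1 point per library with the mean of each genotype as a bar; 0 marks equal levels. The genotypes are apart in 6 pairs and overlap for Eif2ak2 against Adar.

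Among 18 tested regulators and co-sensors of RNA sensing, 2 rose and none fell (11.1% called, beside 17.5% of all genes tested in either direction; list median 0.04). Zc3hav1, encoding the antiviral protein ZAP that binds CpG-rich RNA, went from 21.1 ± 0.793 to 36.8 ± 4.07 TPM (0.76 ± 0.08, adjusted p = 0.000426). Rnf125, encoding a ubiquitin ligase that marks RIG-I for degradation, went from 2.79 ± 0.539 to 4.202 ± 0.566 TPM (0.46 ± 0.13, adjusted p = 0.0426), and it kept its call when WT replicate 2 was left out but lost it without any 1 of the other 7 libraries (adjusted p up to 0.101). The constitutive helicase genes Dhx9, Dhx15, Dhx36 and Ddx3x were not called, and their log2 fold changes lay between -0.04 and 0.17.

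Among genes that act on or after MAVS, 1 of 19 tested rose and none fell (5.26% called, beside 17.5% of all genes, list median 0.08). That gene was Irf7, an interferon-inducible transcription factor that drives interferon alpha genes. It measured 40.2, 44.0, 28.45 and 59.0 TPM in WT and 287.3, 221.2, 195.7 and 249.03 TPM in PIM1+/- (2.48 ± 0.20, adjusted p = 9.54e-05). The genotypes were far apart for Irf7, whereas Irf3, the constitutive factor activated directly through MAVS, went from 65.1 ± 4.90 to 60.7 ± 2.43 TPM and did not pass (-0.10 ± 0.06, adjusted p = 0.33). The type I and type III interferon genes Ifnb1, Ifna2, Ifna4, Ifne, Ifnl2 and Ifnl3 were listed at 0 in all 8 libraries. Ifng, the type II interferon gene of lymphocytes, averaged 0.665 ± 0.332 TPM in WT and 0.88 ± 0.737 TPM in PIM1+/- and was too low to test.

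Zbp1 changed from a gene of middle rank to the most abundant of the set. Zbp1 (ENSMUSG00000027514, minus strand, chromosome 2, 173206612 to 173218923) measured 14.8, 28.4, 14.95 and 16.3 TPM in WT and 134.9, 97.55, 83.9 and 98.6 TPM in PIM1+/-. WT replicate 2 stood above the other WT libraries but far below the lowest PIM1+/- library, and the ratio of means was 5.58 (2.45 ± 0.21, adjusted p = 0.000148). Adar (ENSMUSG00000027951, plus strand, chromosome 3, 89715022 to 89753446), whose interferon-inducible protein form also binds Z-form RNA, measured 24.3, 26.4, 24.9 and 23.3 TPM in WT and 56.8, 45.7, 43.1 and 45.2 TPM in PIM1+/-. Adar rose less, by a ratio of means of 1.93 (0.91 ± 0.09, adjusted p = 0.000284), and the gene-level values do not separate its inducible from its constitutive transcripts.

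The balance of Zbp1 to Adar therefore turned. Zbp1 was below Adar in WT replicates 1, 3 and 4 and above it in WT replicate 2 and in all 4 PIM1+/- libraries. The difference in log2(TPM + 1) went from -0.44 ± 0.38 (SD) in WT to 1.09 ± 0.12 in PIM1+/-, a gain of 1.53 ± 0.20 (SE, exact permutation p = 0.0286, adjusted p = 0.0333, n = 4 per genotype).

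Of 6 tested genes acting with ZBP1 in cell death, 4 rose and none fell (66.7% called, beside 17.5% of all genes; list median 0.35). Mlkl, which encodes the pore-forming executor of necroptosis, measured 11.5, 17.7, 11.5 and 13.2 TPM in WT and 36.5, 28.1, 27.0 and 30.5 TPM in PIM1+/- (1.13 ± 0.14, adjusted p = 0.00124). Ripk3, the kinase gene that joins ZBP1 to MLKL, went from 20.15 ± 2.97 to 30.6 ± 5.66 TPM (0.58 ± 0.14, adjusted p = 0.0202). Casp8, a caspase gene that holds necroptosis in check, rose by 0.44 ± 0.10 (adjusted p = 0.018), and Casp6 by 0.26 ± 0.07 (adjusted p = 0.0372). Ripk1 and Fadd were not called. Mlkl was called with each library left out but not with a posterior Hox gene score as covariate (0.95, adjusted p = 0.0623), a fit in which 0 genes of this list were called by limma. Ripk3 and Casp8 each lost their call without WT replicate 1 or WT replicate 4 (adjusted p up to 0.0578 and 0.0526), and Casp6 kept it only without WT replicate 2. Leaving out either WT replicate 1 or WT replicate 4 reduced the genes called in this list to 1, as did testing without the filter.

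Eif2ak2 (ENSMUSG00000024079, minus strand, chromosome 17, 78852564 to 78882573), encoding PKR, measured 16.8, 16.9, 18.2 and 17.2 TPM in WT and 43.8, 32.3, 28.1 and 29.9 TPM in PIM1+/-. The WT values were nearly equal, the genotypes did not overlap, and the ratio of means was 1.94 (0.90 ± 0.12, adjusted p = 0.00193). The other 3 kinases of the translation factor EIF2, which respond to haem shortage (Eif2ak1), endoplasmic reticulum stress (Eif2ak3) and amino acid shortage (Eif2ak4), did not pass. Their log2 fold changes were -0.09 ± 0.07 (adjusted p = 0.413), 0.14 ± 0.11 (adjusted p = 0.414) and -0.04 ± 0.12 (adjusted p = 0.85). Relative to Adar, Eif2ak2 stood at -0.49 ± 0.09 (SD) in WT and -0.51 ± 0.11 in PIM1+/- on the log2(TPM + 1) scale, a difference of -0.02 ± 0.07 (SE, exact permutation p = 0.771, n = 4 per genotype), which turned positive without PIM1+/- replicate 3 or 4 or WT replicate 3 or 4 (at most 0.01).

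Of 14 tested genes around the EIF2 kinases and the integrated stress response, 3 were called higher and none lower. The share called was 21.4%, beside 17.5% of all genes (list median 0.24). It includes Chac1, which met the filter in PIM1+/- libraries alone, so it is not read as an excess over all genes. Asns, the asparagine synthetase gene induced by ATF4, went from 13.7 ± 2.02 to 25.5 ± 6.08 TPM (0.83 ± 0.16, adjusted p = 0.00874). Asns was called with each library left out but not with the posterior Hox gene score as covariate (0.51, adjusted p = 0.255). In that fit 0 genes of this list were called by limma. Ppp1r15b, a phosphatase subunit that reverses EIF2 phosphorylation, rose by 0.36 ± 0.09 (adjusted p = 0.0228), a call lost without WT replicate 1 or WT replicate 3 (adjusted p up to 0.059). Chac1, an ATF4 target in glutathione breakdown, measured 0.17, 0.14, 0.14 and 0.38 TPM in WT and 12.5, 13.8, 1.1 and 1.14 TPM in PIM1+/-. It reached 1 TPM in the PIM1+/- libraries alone, so it met the filter through the genotype where it is higher. Its call, though part of the 3, is not taken as support. PIM1+/- replicates 1 and 2 were far above replicates 3 and 4. The call was lost without any 1 of the WT libraries (adjusted p up to 0.0957), and without any 1 PIM1+/- library it was too low to test.

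Aim2, the DNA sensor of the set, did not differ between genotypes beyond its spread. Aim2 (ENSMUSG00000037860, plus strand, chromosome 1, 173350879 to 173466040) measured 57.0, 53.1, 69.0 and 65.1 TPM in WT and 47.6, 74.5, 63.7 and 58.6 TPM in PIM1+/-. Both the lowest and the highest of the 8 values came from PIM1+/- libraries, and the means were 61.0 ± 7.27 and 61.1 ± 11.2 TPM. The log2 fold change was -0.01 ± 0.13, with a 95% interval from -0.31 to 0.29 (adjusted p = 0.973), which leaves room for a modest change in either direction. Aim2 was the most abundant member in WT, above Mavs in all 4 libraries without overlap, and in PIM1+/- it was second to Zbp1.

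Of 23 other DNA sensing genes tested, 2 rose and 1 fell (13.04% called, beside 17.5% of all genes; list median 0.06). Pycard, encoding ASC, the adaptor that AIM2 recruits, went from 148 ± 16.8 to 188 ± 14.1 TPM (0.34 ± 0.09, adjusted p = 0.0256), a call lost when any 1 of WT replicates 1, 3 and 4 or PIM1+/- replicates 1 and 2 was left out (adjusted p up to 0.066). Trim56, encoding a ubiquitin ligase linked to cGAS and STING, rose by 0.44 ± 0.11 (adjusted p = 0.0221, and 0.0554 without WT replicate 4), so that 0 of the list's genes were called higher without WT replicate 4. Polr3g, a subunit gene of RNA polymerase III, which can turn DNA into a RIG-I ligand, went from 5.85 ± 0.153 to 3.845 ± 0.396 TPM (-0.50 ± 0.09, adjusted p = 0.00637). The cytosolic DNA sensor gene Cgas was low, at 1.498 ± 0.187 and 2.425 ± 0.685 TPM (0.44 ± 0.15, adjusted p = 0.0752), and its adaptor gene Sting1 measured 4.90 ± 1.34 and 6.22 ± 0.835 TPM (0.31 ± 0.16, adjusted p = 0.226). Neither passed the test.

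A list made up mostly of enzymes that remove self nucleic acid had 6 of 20 tested genes higher and 1 lower (35.0%, beside 17.5% of all genes, list median 0.10). It also held membrane transporter genes and genes of enzymes with other substrates, among them Smpdl3a, the gene called lower. Trex1, the main cytosolic DNA exonuclease gene, measured 5.25, 7.58, 7.08 and 7.27 TPM in WT and 25.4, 17.8, 14.8 and 17.5 TPM in PIM1+/- (1.34 ± 0.16, adjusted p = 0.00102). Trex1 separated the genotypes without overlap and was called without any 1 library. Rnaseh2c, a subunit gene of the RNase that clears RNA:DNA hybrids, rose by 0.40 ± 0.07 (adjusted p = 0.00717), and Smpdl3a, a phosphodiesterase gene, fell from 190 ± 9.25 to 145 ± 17.7 TPM (-0.40 ± 0.09, adjusted p = 0.0155). Rnaset2b, a lysosomal RNase gene whose reads cannot be cleanly parted from its near-identical copy Rnaset2a, rose by 0.33 ± 0.08 (adjusted p = 0.0173, and 0.0533 without WT replicate 1). In this list 2 genes were called higher when WT replicate 1 was dropped, and 3 when PIM1+/- replicate 1 was. With replicate number as a block 3 were called higher. With the posterior Hox gene score as covariate limma called 1 gene of the list higher and 0 lower. Rnaseh2c and Smpdl3a lost their calls in that fit (adjusted p = 0.149 and 0.378). Adarb1, a paralogue of Adar, stayed at 0.0725 ± 0.0395 and 0.05 ± 0.0424 TPM and was too low to test.

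**Figure D3:**
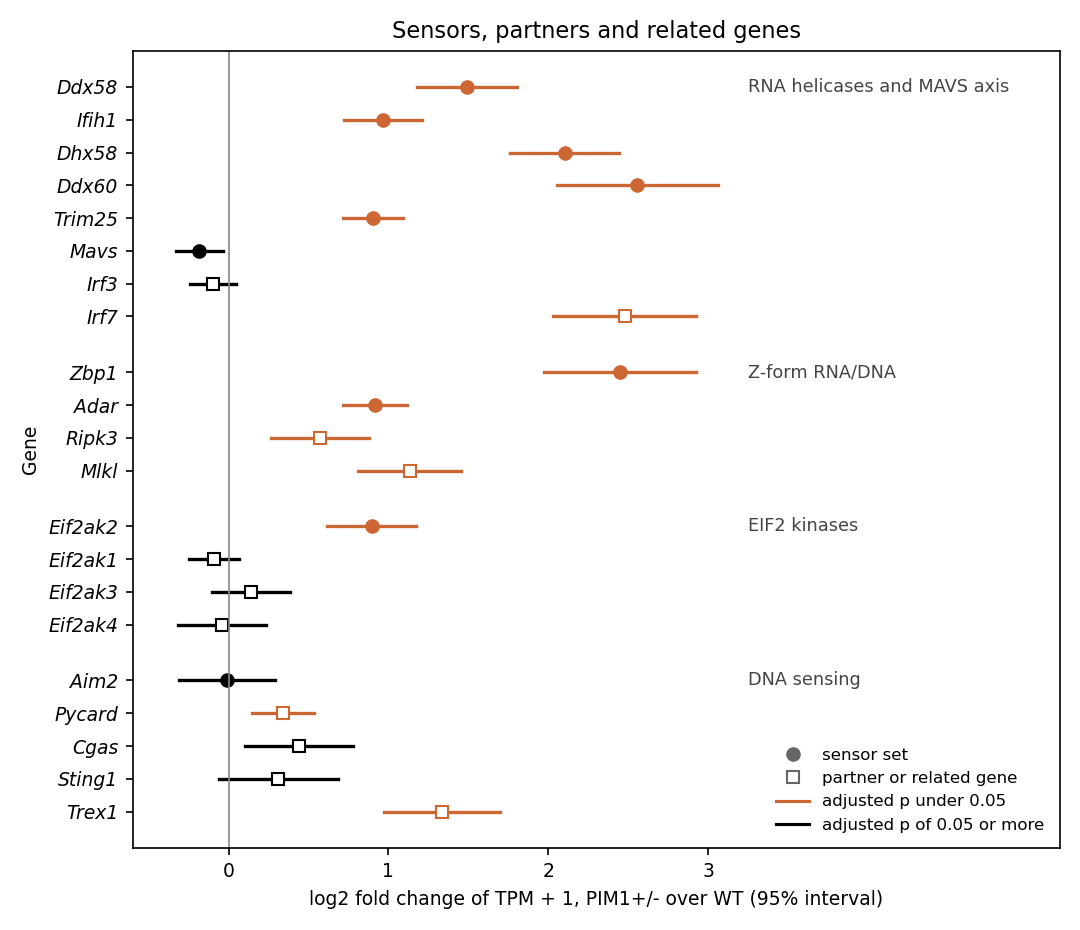
Log2 fold change (PIM1+/- over WT, log2(TPM + 1) scale) with its 95% interval for the 10 sensor genes (filled circles) and 11 partners or related genes (open squares); orange marks an adjusted p under 0.05. Mavs, Irf3, the 3 other EIF2 kinases, Aim2, Cgas and Sting1 are not called.

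Across the 6 lists together, 18 of 98 tested pathway genes were higher and 2 lower (20.4%, beside 17.5% of all genes tested), with a median log2 fold change of 0.09. Chac1, which met the filter in PIM1+/- libraries alone, is among the 18. Dropping WT replicate 1 gave 7 higher genes, dropping WT replicate 4 gave 10, and dropping PIM1+/- replicate 1 gave 11, while dropping PIM1+/- replicate 4 gave 5 lower genes. By direction, 18.4% of the pathway genes were higher with Chac1 included, beside 8.93% of all genes tested, and 2.04% lower, beside 8.54%.

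**Figure D4:**
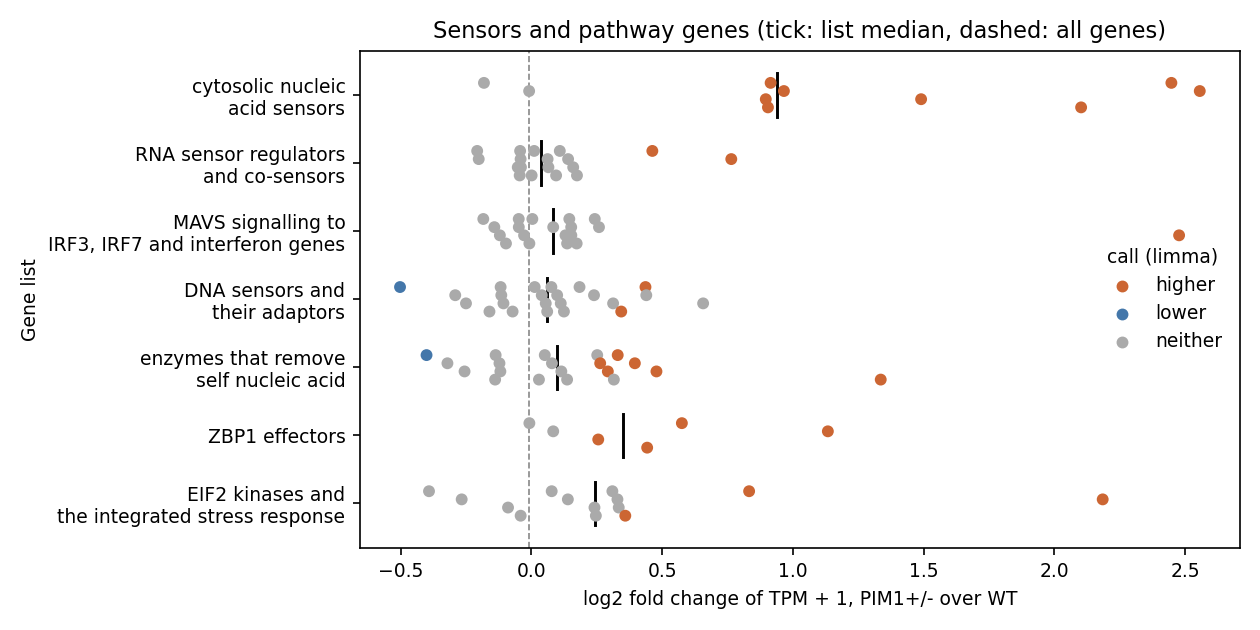
Log2 fold change of each tested gene in the sensor set and 6 pathway lists, 1 point per gene, coloured by its call, with list medians as ticks and the median of all genes tested dashed. The sensor set has its median at 0.94, and each pathway list has its median between 0.04 and 0.35.

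The order of levels within the set differed between genotypes. In WT the order of means was Aim2, Mavs, Trim25, Adar, Zbp1, Ifih1, Eif2ak2, Ddx58, Dhx58 and Ddx60. Neighbours from Mavs to Eif2ak2 overlapped in their ranges, as did Ddx58 and Dhx58. In PIM1+/- the order was Zbp1, Aim2, Trim25, Adar, Ifih1, Eif2ak2, Dhx58, Ddx60, Mavs and Ddx58, and all neighbours overlapped except Zbp1 and Aim2.

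The increase was uneven among the PIM1+/- libraries. Replicate 1 had the highest value of all 8 genes that rose, and replicate 3 the lowest value of 6 of them. Without PIM1+/- replicate 1, and without each of the other libraries in turn, the same 8 genes were called (largest adjusted p = 0.00796, for Eif2ak2). A score of 17 immune markers, the mean of their standardised log2(TPM + 1), stood at 0.65, 0.15, 1.08 and 1.21 in PIM1+/- replicates 1 to 4 and between -1.24 and -0.53 in WT. The 17 include Cd8a, Itgae, Mcpt1 and Mcpt2, which met the filter in PIM1+/- libraries alone. The difference of the score between genotypes is therefore not taken as support. The score correlated with genotype at 0.908, and the part of immune cell RNA in the increase of the sensors was not tested beyond this covariate. With it as covariate limma called 0 of the 10 genes and 3 of all 12760. The estimates of the 8 genes were then between 0.91 for Trim25 (adjusted p = 0.184) and 2.58 for Zbp1 (adjusted p = 0.154), with SEs between 0.21 and 0.56, against 0.08 to 0.22 without the covariate. A score of 6 posterior Hox genes (paralogous groups 10 to 13), which mark position along the gut, ran from 0.28 to 1.04 in WT and from -1.79 to 0.11 in PIM1+/-. The Hox score did not overlap between genotypes and correlated with genotype at -0.733, so the score is confounded with genotype. Any difference in position along the gut that it follows cannot be told apart from genotype. Whether position differed between the libraries was not tested. With the posterior Hox score as covariate 7 of the 8 were called by limma, and Eif2ak2 was not (0.59, adjusted p = 0.058).

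Outside the set, the genes whose log2(TPM + 1) followed the mean of the 10 standardised members most closely over the 8 libraries were Oas1g (Pearson r = 0.996), C2 (0.994), Usp18 (0.993), Ift172 (0.993) and Oas2 (0.992). These r values describe the likeness and mostly reflect the step between genotypes. Usp18, encoding a protease that removes ISG15 and dampens interferon receptor signalling, went from 2.03 ± 0.674 to 40.0 ± 17.7 TPM. C2, the complement component gene, went from 1.29 ± 0.0759 to 6.51 ± 0.664 TPM, and Ift172, encoding a protein of intraflagellar transport in cilia, from 27.7 ± 0.695 to 44.0 ± 1.41 TPM. Among the members themselves, the 8 that rose had r between 0.961 and 0.984 with this mean, Mavs -0.847 and Aim2 -0.02.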

How the data were processed

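RNA of 4 WT and 4 PIM1+/- libraries was extracted with TRIzol, per the labels' protocols. The deposited values were TPM per gene, quantified by the authors with RSEM as the deposited design text states. HISAT2, StringTie, edgeR and the build GRCm38.p6 are further named in the submitters' processing notes. The annotation release, strand setting and depth were not given in the sources used here. Since TPM values share a constant total, abundant transcripts shift all others, and without a known strand setting reads of Dhx58, Eif2ak2, Adar and Aim2 cannot be told from those of overlapping genes on the opposite strand, which were listed at a mean of at most 1.13 TPM where present in the table. All per-sample columns were used (0 left out), matched through sample titles.

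Genes reaching 1 TPM in 4 or more of the 8 libraries were fitted on log2(TPM + 1) with limma 3.58.1 (R 4.3.3; moderated two-sided test, variance trend on), threshold 0.05 after Benjamini-Hochberg adjustment. A member low in a single genotype could have entered through the other. Coordinates are from GENCODE M21 and promoters from RefSeq, both on GRCm38. The members and lists were chosen with earlier results of these data known. The text names all members, Pim1, up to 4 called genes with the smallest adjusted p in each list, 12 partner genes and the 5 genes most like the members. Other genes (the helicases, interferon genes, Ripk1, Fadd, markers and those in the closing part) were picked once their values were known. Of the list symbols, Mnda and Pyhin1 were not matched, and Mb21d1 and Tmem173 were matched as Cgas and Sting1. The tests were checked on simulated data, and alternatives are given in the closing part. Figures were drawn with matplotlib 3.10.9.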

Additional observations from a re-analysis of the deposited data

Results flagged for a closer look

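Single libraries stood apart from the other 3 of their genotype, by Dixon's criterion, in 8 of 66 groups examined, where chance gives about 1 in 20. Of the sensors, Zbp1 was high in WT replicate 2 (28.4 TPM), and Trim25 was low in WT replicate 3 (25.4 TPM) and high in PIM1+/- replicate 1 (61.3 TPM). PIM1+/- replicate 1 was also set apart for Cgas (3.44 TPM, high), Smpdl3a (118 TPM, low), Casp8 (91.0 TPM, high) and Ppp1r15b (65.5 TPM, high). Chac1 was high in WT replicate 4 (0.38 TPM). Without WT replicate 2 Zbp1 was still called, as was Trim25 without either library.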

How the results depend on the processing

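The 8 sensors called higher numbered 8 without each library in turn (range 8 to 8, with 0 to 0 lower) and under every other alternative except the immune marker covariate (0) and the posterior Hox covariate (7). Members called lower numbered 1 (Mavs) after upper quartile scaling and 1 after scaling without mitochondrial transcripts. Pathway genes called higher numbered 0 with the immune covariate, 3 with the Hox covariate, 10 without a filter, 11 with the replicate block, 6 at an adjusted p of 0.01 and 7 to 16 with a library left out. Those called lower numbered 0, 1, 6 (scaling without mitochondrial transcripts), 7 (upper quartile), 1 (adjusted p of 0.01) and 2 to 5 (a library left out). Of all genes, 1139 were higher and 1090 lower (51.1% higher). The numbers were 2 and 1 with the immune covariate, 168 and 75 with the Hox covariate, 471 and 365 at 0.01, 773 and 666 without a filter, 857 and 1565 in the scaling without mitochondrial transcripts (35.4% higher), 926 and 1520 after upper quartile scaling (37.9% higher), 760 and 689 with the replicate block, and 744 to 1009 and 602 to 1041 with a library left out. The immune score correlated with genotype at 0.908 and the posterior Hox score at -0.733. Fits with a library left out had fewer libraries, and the fit without a filter tested more genes. The cause of the changes in these numbers was not tested.

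Same-numbered libraries did not deviate together (correlations -0.136 to 0.032, 0 of 8 correlating best with their own number), and the block ended no call among the sensors. Aim2 turned in sign without ever being called: 0.33 with the immune covariate, 0.23 with the Hox covariate, and -0.11 to 0.10 with a library left out (above 0 without PIM1+/- replicate 1 or 4 or WT replicate 3 or 4). Eif2ak3 turned to -0.075 with the Hox covariate, and Eif2ak4 ran from -0.12 to 0.040 with a library left out (above 0 without PIM1+/- replicate 2 or WT replicate 1). With a library left out, Eif2ak2 against Adar ran from -0.07 to 0.01. The other 6 pair differences kept their direction with every library left out, with a pseudocount of 0.1 and under mitochondria-free scaling. The replicate block, as paired differences, gave the same values for the pairs, and 4 pairs cannot reach the threshold. Depth is unknown, so the precision of low values such as Cgas, Chac1 and the interferon genes listed at 0 cannot be stated.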

Other observations

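Aim2 lies in a cluster of interferon-inducible PYHIN genes on chromosome 1, and its neighbours were far less abundant. Mndal alone of the Ifi200-type genes in the DNA sensor list was high enough to test (0.618 ± 0.221 TPM in WT and 1.603 ± 0.727 TPM in PIM1+/-, 0.66 ± 0.20, limma adjusted p = 0.0534), and it met the filter in PIM1+/- libraries alone. Ifi204 (chromosome 1, 173747293 to 173766943, GRCm38) was listed at 0, 0.06, 0 and 0.08 TPM in WT libraries and at 0.76, 0.42, 0.57 and 0.46 TPM in PIM1+/-, and Ifi206 measured 0.11, 0.05, 0.09 and 0.04 TPM and 0.38, 0.22, 0.33 and 0.22 TPM. Both were without overlap between genotypes, and both passed limma in the fit without a filter (0.58, adjusted p = 0.00609, and 0.26, adjusted p = 0.027). Ifi211, at 0.0425 ± 0.0613 and 0.232 ± 0.0699 TPM, did not (adjusted p = 0.0503). The other 7 of the 10 genes below the filter overlapped between genotypes and did not pass (adjusted p from 0.149 to 0.964). Aim2 itself, at 61.0 and 61.1 TPM, was in a different range from these neighbours and showed no such step.

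The Adar paralogue Adarb2, a gene better known from brain, was listed at 79.3, 59.6, 105.8 and 47.2 TPM in WT and 60.65, 59.7, 37.9 and 69.65 TPM in PIM1+/-. It was not called (-0.32 ± 0.25, limma adjusted p = 0.42), and its level in WT exceeded that of Adar in every library, whereas Adarb1 was at most 0.12 TPM throughout.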
